A study of Homo sapiens with 4 samples.

Results

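Histone lysine methyltransferases and demethylases were examined in imatinib-sensitive and imatinib-resistant BCR-ABL leukaemia cells. The members were chosen by name from a list of 49 gene symbols and grouped by the lysine on which they act, and the rule uses no measured value. The deposited table holds 48 of them among its 32673 genes; the remaining symbol, SETD8, is an older name of KMT5A. All 48 members were among the 15519 genes tested, with 28 writers (methyltransferases) and 20 erasers (demethylases). TF1-BA cells are TF1 cells, a human erythroleukaemia line, that carry the p210 BCR-ABL oncogene from a retrovirus. TF1-BAR cells are derived from them by months of continuous treatment with imatinib, the inhibitor of the ABL kinase. RNA of each line was sequenced in 2 libraries, numbered replicate 1 and 2, each from 10000000 cells by the sample labels. Both lines were grown with the cytokine GM-CSF, at 2 ng/mL by the labels and at a higher amount by the methods of the study, and only for TF1-BAR cells do the labels name imatinib in the medium, at 2 μM. Exposure to the drug, if it was present at harvest, and resistance can therefore not be told apart, and the titles of the TF1-BAR libraries name a vector, without saying what it carries, which cannot be told apart from resistance either. Each group is 1 cell line, and nothing states that its libraries came from separate cultures, so p-values measure only the spread between these libraries, which may be technical.

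Methylation of histone lysines is written by enzymes with a SET domain, and by DOT1L, which has none, with S-adenosylmethionine as the methyl donor. It is removed by the LSD enzymes KDM1A and KDM1B, which use FAD, and by Jumonji (JmjC) enzymes, which use oxygen, iron and α-ketoglutarate. Methylation of H3K4 marks promoters and enhancers, methylation of H3K36 and H3K79 marks transcribed gene bodies, and methylation of H3K9, H3K27 and H4K20 is found in repressed or compacted chromatin. Several of these enzymes, among them KMT2A, DOT1L, SETD2, NSD1 and KDM1A, are altered in leukaemia or are drug targets in it. Histone methylation itself was not analysed here, only the RNA of the genes.

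Levels are given as FPKM, fragments scaled to the length of the gene and to the size of the library. The library sizes to which the FPKM were scaled, recovered from the values themselves, were 15465497 to 18042299 fragments. There were 50 to 7149 fragments per member and library. Replicates correlated at 0.983 in TF1-BA and 0.979 in TF1-BAR on the log2 scale, across genes, against 0.946 to 0.956 between the lines. The markers of the TF1 progenitor type, CD34, KIT, GATA1, GATA2, TAL1, ITGA4 and HBG2, were present in all 4 libraries, as were CSF2RA and, on 12 to 16 fragments, HBG1, and CD34 lay at 24.7 to 25.8 FPKM in TF1-BA and at 53.9 to 61.2 in TF1-BAR. Of the 3 T cell markers, CD3E and CD2 held 0 to 2 fragments, while CD3D was at 19.2 and 20.7 FPKM in TF1-BA and at 5.74 and 6.36 in TF1-BAR. The B cell marker CD79A lay at 1.84 to 3.55 FPKM, and the fibroblast collagen genes COL1A1, COL1A2 and COL3A1 at 0 to 0.429.

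Promoters are shown for members that differed between the cell lines, as the stretch around the annotated start of the gene. RefSeq (GRCh38.p14) gave a promoter, 250 bases before to 50 after the start, for 45 of the 48. All were read on the strand of the gene, and 3 motifs were searched on both strands. The first is the core of ETS factor sites, written CCGGAAG. The GATA motif of erythroid factors was searched as the letters AGATAA. The E-box bound by MYC and its relatives reads CACGTG on either strand. Capitals mark these motifs, and no match in a member overlapped another. SMYD3 (chr1:246507230-246507529, minus strand) and SETD2 (chr3:47164064-47164363, minus strand) are the higher members that were called in all 14 other settings with all libraries. EHMT2 (chr6:31897649-31897948, minus strand) and KMT2D (chr12:49060745-49061044, minus strand) are the higher members that hold a motif, and KDM4C (chr9:6757723-6758022, plus strand) is the lower member that does.
SMYD3: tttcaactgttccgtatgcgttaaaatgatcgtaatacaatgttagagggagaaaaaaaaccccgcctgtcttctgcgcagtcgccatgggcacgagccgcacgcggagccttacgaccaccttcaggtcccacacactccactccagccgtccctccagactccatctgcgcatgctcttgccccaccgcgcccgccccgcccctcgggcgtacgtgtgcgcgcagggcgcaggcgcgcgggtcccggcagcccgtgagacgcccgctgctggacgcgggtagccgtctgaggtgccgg
SETD2: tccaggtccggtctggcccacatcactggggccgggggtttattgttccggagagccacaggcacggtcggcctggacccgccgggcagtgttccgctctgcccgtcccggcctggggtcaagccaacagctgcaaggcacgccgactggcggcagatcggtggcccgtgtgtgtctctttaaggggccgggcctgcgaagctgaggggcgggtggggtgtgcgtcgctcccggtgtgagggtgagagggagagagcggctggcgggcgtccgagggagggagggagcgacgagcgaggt
EHMT2: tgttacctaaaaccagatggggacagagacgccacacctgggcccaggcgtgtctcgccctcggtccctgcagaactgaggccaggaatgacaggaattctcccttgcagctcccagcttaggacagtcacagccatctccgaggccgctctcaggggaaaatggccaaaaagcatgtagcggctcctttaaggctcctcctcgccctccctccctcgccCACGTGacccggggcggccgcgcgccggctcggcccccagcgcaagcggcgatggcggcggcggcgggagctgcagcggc
KMT2D: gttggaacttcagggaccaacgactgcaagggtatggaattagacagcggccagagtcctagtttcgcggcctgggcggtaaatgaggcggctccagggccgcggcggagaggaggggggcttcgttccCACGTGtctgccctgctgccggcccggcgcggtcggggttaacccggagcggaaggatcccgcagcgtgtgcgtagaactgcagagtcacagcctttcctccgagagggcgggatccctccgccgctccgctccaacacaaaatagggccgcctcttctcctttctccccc
KDM4C: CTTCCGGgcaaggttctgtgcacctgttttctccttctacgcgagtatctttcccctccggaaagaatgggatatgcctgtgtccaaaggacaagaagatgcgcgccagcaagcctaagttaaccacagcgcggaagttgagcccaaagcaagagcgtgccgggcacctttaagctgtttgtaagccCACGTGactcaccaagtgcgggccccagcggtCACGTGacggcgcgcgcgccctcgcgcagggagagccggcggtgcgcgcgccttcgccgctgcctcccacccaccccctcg
The first base of the E-box lies at −30 in EHMT2 and at −121 in KMT2D, counted from the start, and KDM4C holds E-boxes at −63 and −31 and an ETS core on the opposite strand at −250. The KDM4C start of RefSeq lies inside the gene as the deposited table places it, and the KMT2D start before it. An E-box was found in 15.6% of the member promoters and in 7.43% of all 27305 promoters of this length. The ETS core was found in 13.3% against 10.7%, and the GATA motif in 11.1% against 10.5%. Of the 8 promoters of higher members, 2 held an E-box and 0 held an ETS core or a GATA motif. Of the 7 of lower members, 1 held an E-box, 1 an ETS core and 0 a GATA motif. Of the 30 of members not called, 4 held an E-box, 5 an ETS core and 5 a GATA motif. The median number of CpG dinucleotides was 29 in the member promoters and 14 in all promoters. The letters of the E-box and of the ETS core hold a CpG, and the shares were not adjusted for CpG. A match of letters describes the window and no binding.

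The plot of levels by library shows the 16 members that differed between the cell lines. Expression was compared with limma on log2(FPKM + 0.5) over all genes tested, with Benjamini-Hochberg adjustment, and a member is called higher or lower at an adjusted p under 0.05. The TF1-BAR cells had higher levels of 9 members, all writers, SMYD3, KMT2B, KMT2D, EHMT2, SETDB2, PRDM2, SETD2, NSD3 and ASH1L. They had lower levels of 7 members, the writers SETD7, SETD3 and KMT5A and the erasers JMJD1C, KDM4A, KDM4C and KDM1B. Over all genes tested 16.3% were called higher and 10.5% lower, 26.9% in either direction, against 18.75%, 14.6% and 33.3% of the members. The fold change threshold of the study (1 on the log2 scale, up or down) and the adjusted p were both met by 0 members and by 4.75% of all genes, while 20 members (41.7%) had an unadjusted p under 0.05, as did 42.2% of all genes tested. The log2 fold changes of the members ran from −0.64 to 0.97 with a median of 0.09, beside a median of 0.07 over all genes tested.

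**Figure D1:**
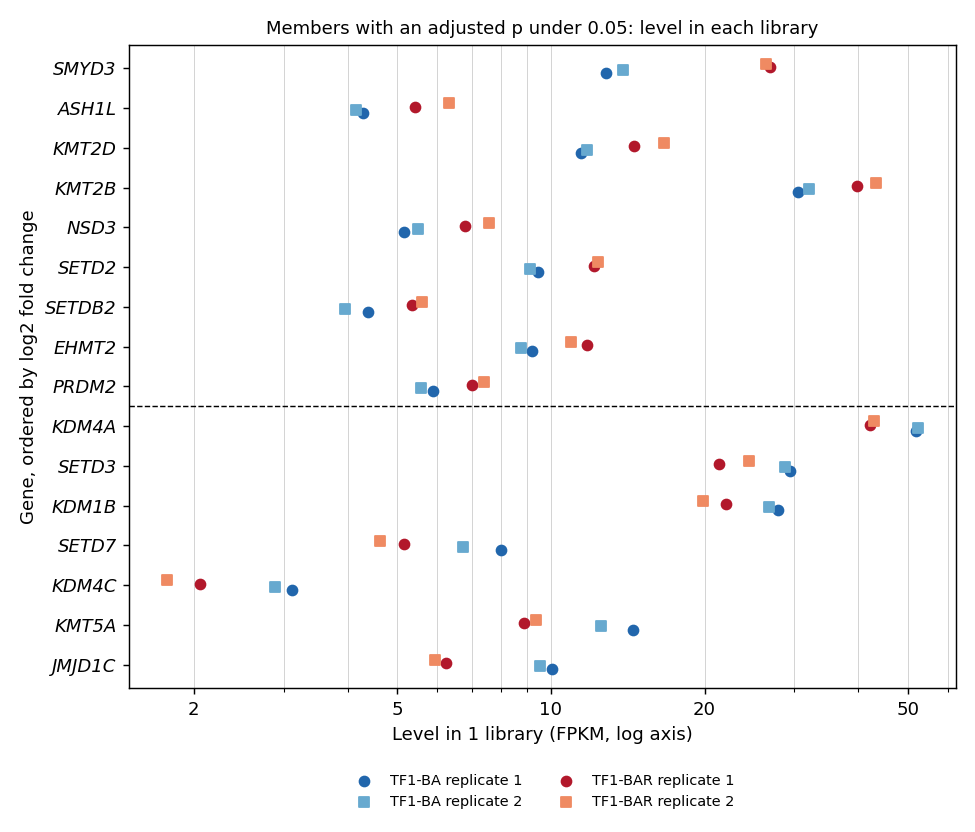
Level of each called member in each library, in FPKM on a log axis, with the 9 higher members above the dashed line and the 7 lower ones below it. Circles and squares are replicates 1 and 2, blue TF1-BA and red TF1-BAR. In all 16 genes, as in 69.3% of all genes tested, the TF1-BAR points lie on 1 side of the TF1-BA points.

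Of the 28 writers, 9 were called higher and 3 lower, with a median log2 fold change of 0.18. Of the 20 erasers 0 were called higher and 4 lower, with a median of 0.05. Over all genes tested 16.3% were called higher and 10.5% lower. The writer counts moved with the setting. They were 11 higher and 2 lower with TPM, 5 and 3 with quantile normalization, 2 and 1 with eBayes without trend, and 3 and 3 with each chromosome's median removed. No eraser was called higher by limma at any of the settings tried, and 6 of 20 erasers had an unadjusted p under 0.05, beside 42.2% of all genes tested. The libraries of the lines did not overlap for 34 members, 23 higher and 11 lower in TF1-BAR, and such separation was found in 69.3% of all genes tested, 40.9% higher and 28.4% lower. The split of calls moved with the scaling: TPM gave 11 higher and 6 lower members, quantile normalization 5 and 7, removal of the trend on GC content, length and level 7 and 8, and subtraction of each chromosome's median 3 and 7. For most chromosomes the median removed lay near that over all genes tested (0.066), while those of chromosomes 10 and 20 were −0.346 and 0.39. Fewer members were called with no filter on low values (2 higher and 1 lower) and with eBayes without trend (2 and 3). With no filter these were SMYD3, SETD2 and JMJD1C, and the adjusted p (limma) of the other 13 called members was 0.0501 (KDM4A) to 0.106 (SETD3). Of the 14 other settings with all libraries, SMYD3, SETD2 and JMJD1C were called in 14, KMT5A and KDM4C in 13, KMT2B, SETD7, KDM1B and KDM4A in 12, KMT2D and NSD3 in 11, SETD3 in 10, EHMT2 and ASH1L in 8, SETDB2 in 7 and PRDM2 in 6. Calls also depended on single libraries. Without TF1-BA replicate 1 or without TF1-BA replicate 2, 0 members were called in either direction, without TF1-BAR replicate 1 there were 5 higher and 3 lower, and without TF1-BAR replicate 2 there were 1 and 1. With 2 libraries per line an exact permutation test of 1 gene cannot give a two-sided p below 0.333, so the calls rest on the spread that limma shares among genes. In bulk RNA, a change in the RNA per cell and a change in the share of cells that express a gene cannot be told apart.

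**Figure D2:**
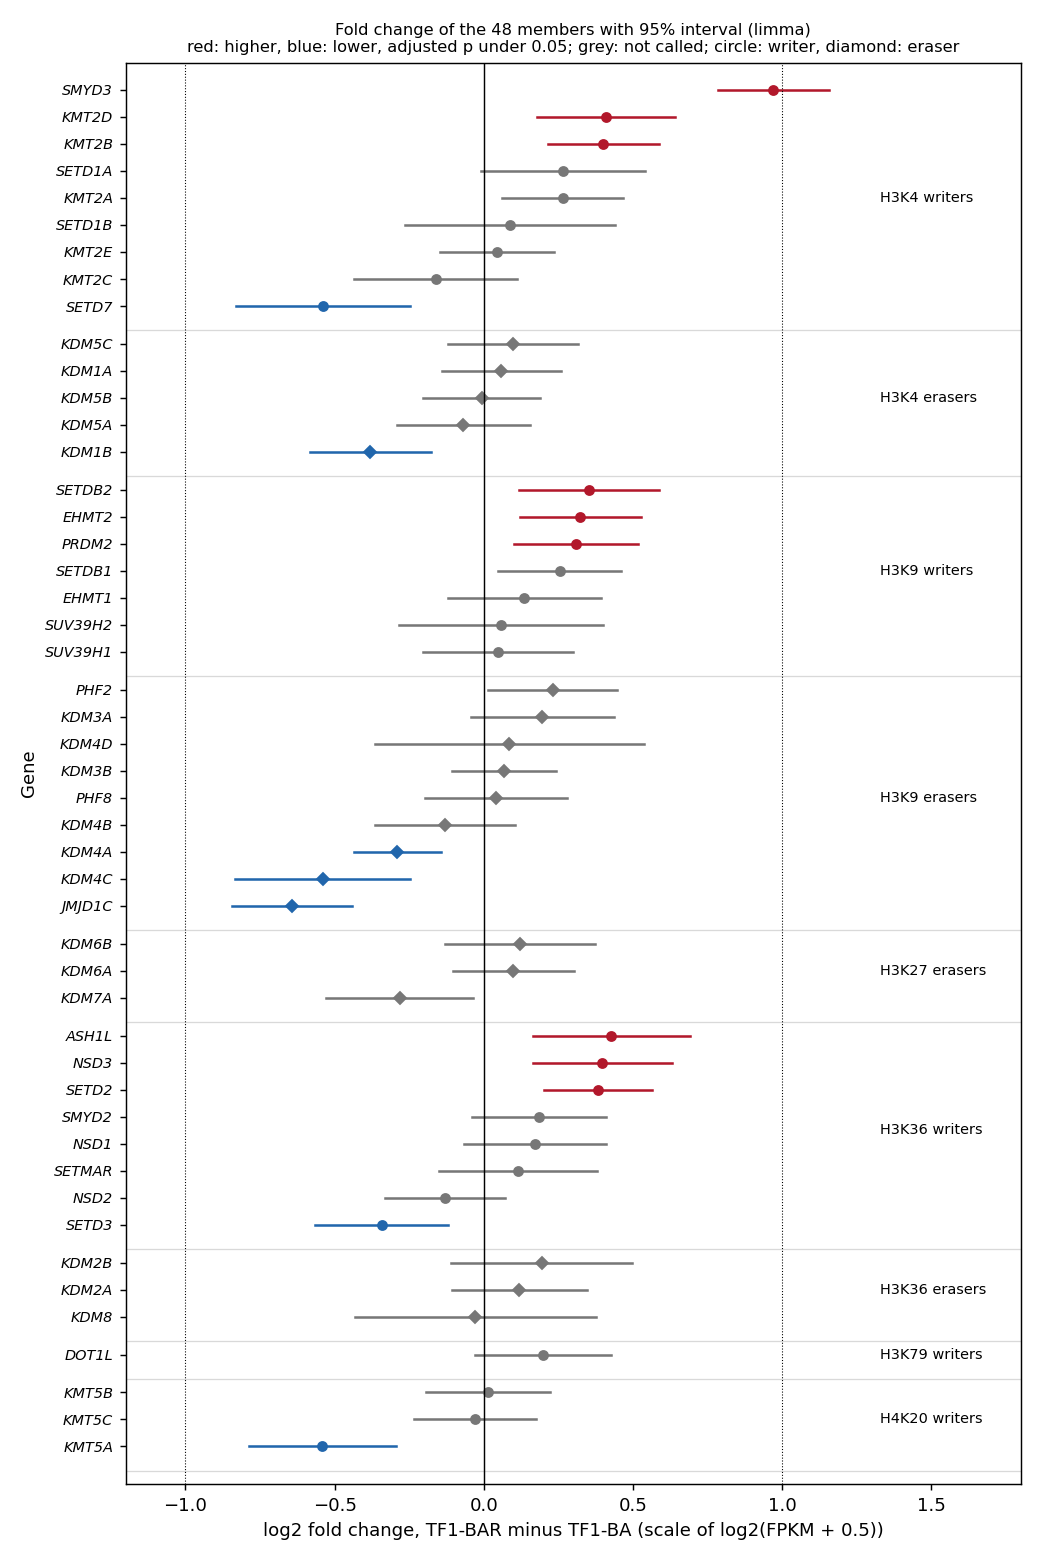
Log2 fold change of each of the 48 members (TF1-BAR minus TF1-BA, points) with its 95% interval (lines), grouped by lysine and role, with dotted lines at −1 and 1. Red and blue points have an adjusted p under 0.05; the 9 red ones are circles (writers), and of the 7 blue ones 4 are diamonds (erasers).

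Among the 9 writers of H3K4, 3 were higher, 1 was lower and 5 did not pass the test. Over all genes tested 16.3% were higher and 10.5% lower. SMYD3, a SET and MYND domain enzyme that also methylates cytoplasmic kinases, had the largest change of any member. It was at 12.8 and 13.9 FPKM in TF1-BA and at 26.9 and 26.4 in TF1-BAR, so both resistant libraries were near 2.00 times the mean of the sensitive ones, and the log2 fold change was 0.97 (SE 0.0719, 95% interval 0.79 to 1.16, adjusted p = 0.00421, limma). SMYD3 (ENSG00000185420) spans positions 245749342 to 246507312 on the minus strand of chromosome 1 (GRCh38, as in the table), and 26 of the 27 genes tested within 2 Mb changed by less, with a median of 0.25. KMT2B, a writer of H3K4 trimethylation at promoters, was the most abundant writer at 30.5 and 32.0 FPKM in TF1-BA and 39.7 and 43.3 in TF1-BAR (log2 fold change 0.40, SE 0.0727, adjusted p = 0.0208, limma). Its relative KMT2D, which monomethylates H3K4 at enhancers, was at 11.4 and 11.8 against 14.6 and 16.7 (0.41, SE 0.0900, adjusted p = 0.0314, limma), and was at 0.33 with the chromosome's median removed, where it was not called (adjusted p = 0.0568, limma). Reads of KMT2D can be shared with the neighbouring gene PRKAG1, which overlaps it on the same strand and reached 23.3 FPKM. In both KMT2 genes the groups did not overlap, as in 69.3% of all genes tested, and the change was larger than the gap between replicates. Both traits are nearly given in genes chosen by the test and add no support.

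SETD7, a monomethylase of H3K4 and of many other proteins, was the lower member of the H3K4 writers, at 7.99 and 6.74 FPKM in TF1-BA and at 5.17 and 4.64 in TF1-BAR (log2 fold change −0.54, SE 0.113, adjusted p = 0.0290, limma). The ratio of SMYD3 to SETD7, a pair chosen after the values were seen like the other pairs set side by side below, was 1.61 and 2.06 in TF1-BA and 5.21 and 5.68 in TF1-BAR. KMT2A, the MLL gene of acute leukaemias, was at 11.0 and 11.5 against 13.0 and 14.2 FPKM and did not pass the test (0.27, 95% interval 0.06 to 0.47, adjusted p = 0.0646, limma). SETD1A was at 6.30 and 6.06 against 6.89 and 8.21, SETD1B at 1.74 and 2.22 against 2.08 and 2.17, and KMT2E, a relative without known enzyme activity, at 6.93 and 6.81 against 7.20 and 7.00. None of these passed, and the values of SETD1B overlapped between the lines. KMT2C, a relative of KMT2D that also acts at enhancers, was low at 2.06 and 2.13 against 1.79 and 1.86 FPKM, and its reads can be split with near-identical copies of part of the gene.

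H3K4 erasers were led by KDM1A (LSD1), the demethylase of the CoREST complex. KDM1A was at 30.5 and 27.7 FPKM in TF1-BA and at 29.6 and 31.1 in TF1-BAR (log2 fold change 0.06, SE 0.0771, 95% interval −0.14 to 0.26, adjusted p = 0.596, limma), and its values overlapped between the lines. Its relative KDM1B (LSD2), which acts in gene bodies, was lower in TF1-BAR, at 22.0 and 19.8 FPKM against 27.9 and 26.8 (−0.38, SE 0.0785, adjusted p = 0.0279, limma). KDM1A thus exceeded KDM1B 1.10 and 1.03 times in TF1-BA and 1.34 and 1.57 times in TF1-BAR. The JmjC enzymes KDM5A, KDM5B and KDM5C, which remove H3K4 trimethylation, lay at 5.91 to 6.63, 6.28 to 6.54 and 15.6 to 18.0 FPKM over the 4 libraries, and each overlapped between the lines.

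All 7 writers of H3K9 had a positive log2 fold change, from 0.05 to 0.35, as did 57.3% of all genes tested. Of the 7, 3 passed the test as higher, beside 16.3% of all genes tested. With the trend on GC content, length and level removed, EHMT1 (−0.078) and SUV39H1 (−0.068) were negative, and SUV39H1 (−0.051) also with quantile normalization. EHMT2 (G9a), the main writer of H3K9 dimethylation in active chromatin, was at 9.20 and 8.75 FPKM in TF1-BA and at 11.8 and 10.9 in TF1-BAR (0.32, SE 0.0788, adjusted p = 0.0404, limma). SETDB2 was at 4.39 and 3.96 against 5.34 and 5.60 (0.35, SE 0.0913, adjusted p = 0.0465, limma), and PRDM2 (RIZ1) at 5.88 and 5.58 against 7.02 and 7.42 (0.31, SE 0.0805, adjusted p = 0.0477, limma). With the chromosome's median removed none of the 3 was called, at log2 fold changes of 0.27 for EHMT2 (adjusted p = 0.0673, limma), 0.35 for SETDB2 (0.0506) and 0.26 for PRDM2 (0.0783), and with the trend removed EHMT2 (0.22, adjusted p = 0.135) and PRDM2 (0.19, adjusted p = 0.0998) were not. SETDB2 and PRDM2 were also not called with the replicate number as a block (adjusted p = 0.0652 and 0.0672, limma). In each of the 3 genes the lower TF1-BAR library was above the higher TF1-BA library, as in 40.9% of all genes tested. Such separation is nearly given in genes chosen by the test and adds no support. SUV39H2, a writer of H3K9 trimethylation in heterochromatin, was the most abundant at 13.2 and 13.0 against 15.5 and 11.9 FPKM (0.06, SE 0.133, adjusted p = 0.776, limma), where the TF1-BAR libraries lay on either side of the TF1-BA ones. SETDB1, the writer recruited by zinc finger repressors, was at 5.49 and 5.80 against 6.99 and 6.68 (0.26, adjusted p = 0.0736, limma). The G9a partner EHMT1 was at 2.09 to 2.40 FPKM and SUV39H1 at 2.83 to 3.16.

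Of the 9 erasers of H3K9, 3 were lower in TF1-BAR and 0 higher, beside 10.5% and 16.3% of all genes tested. KDM4A, a JmjC enzyme for trimethylated H3K9 and H3K36, was the most abundant member of all, at 51.9 and 52.4 FPKM in TF1-BA and at 42.2 and 42.9 in TF1-BAR (log2 fold change −0.29, SE 0.0566, adjusted p = 0.0248, limma). The replicates of each line lay within 1 FPKM of each other, and the change was larger than these gaps. That is nearly given in genes chosen by the test and adds no support. KDM4A was not called with no filter (adjusted p = 0.0501, limma) or with eBayes without trend (adjusted p = 0.0683, limma). Leaving out each library in turn gave log2 fold changes of −0.30 to −0.28. The study reported no significant alteration of KDM4A in its RNA-seq data. Here KDM4A did not meet the fold change threshold of the study. KDM4C, with the same substrates, was at 3.12 and 2.89 against 2.05 and 1.77 FPKM (−0.54, SE 0.114, adjusted p = 0.0292, limma), and KDM4B at 3.16 and 3.32 against 2.88 and 2.96 without passing the test (−0.13). KDM4D, which lacks the H3K36 activity, was at 1.92 and 1.98 against 1.73 and 2.53 FPKM.

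JMJD1C, a relative of the H3K9 demethylases KDM3A and KDM3B, had the largest fall of any member as fitted here. KDM4C was below it with the trend on GC content, length and level removed (−0.69), and with the chromosome's median removed 7 members were below it: KMT5A and KDM4C (both −0.62), SETD7 (−0.53), KDM1B (−0.44), SETD3 (−0.38), KDM7A (−0.37) and KDM4A (−0.34). The level of JMJD1C was 10.0 and 9.54 FPKM in TF1-BA and 6.24 and 5.93 in TF1-BAR (log2 fold change −0.64, SE 0.0780, 95% interval −0.85 to −0.44, adjusted p = 0.00911, limma). JMJD1C (ENSG00000171988) lies at 63167221 to 63521850 on the minus strand of chromosome 10, where 44.5% of the 593 genes tested were called lower and the median log2 fold change was −0.35. When the median of the other genes of its chromosome was subtracted, JMJD1C was at −0.30 (adjusted p = 0.0495, limma). The 4 genes tested within 2 Mb all had a higher log2 fold change, with a median of −0.21. SUV39H2 lies on the same chromosome, and the same subtraction moved its log2 fold change from 0.06 to 0.41 (adjusted p = 0.0856, limma). KDM3A was at 6.33 and 7.22 against 7.68 and 7.96 FPKM, KDM3B at 16.2 and 15.9 against 16.4 and 17.3, and PHF2 at 3.44 and 3.56 against 4.19 and 4.21. PHF8, which also removes H4K20 methylation, was at 4.75 and 4.61 against 4.56 and 5.11 (log2 fold change 0.04, SE 0.0926, adjusted p = 0.767, limma). None of the 4 passed the test.

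The 3 erasers of H3K27, which oppose the Polycomb methyltransferases, did not pass the test. KDM6B (JMJD3), the most abundant, was at 15.8 and 17.5 FPKM in TF1-BA and at 17.0 and 19.4 in TF1-BAR (log2 fold change 0.12, SE 0.0971, 95% interval −0.13 to 0.37, adjusted p = 0.390, limma). KDM6A (UTX), a subunit of the KMT2C and KMT2D complexes, was at 6.09 and 6.06 against 6.34 and 6.75. KDM7A, which also removes H3K9 dimethylation, was at 11.3 and 10.4 against 9.45 and 8.32 (−0.28, 95% interval −0.53 to −0.04, adjusted p = 0.0880, limma).

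The H3K36 writers split, with 3 higher, 1 lower and 4 that did not pass, beside 16.3% higher and 10.5% lower over all genes tested. SETD2 is the enzyme that trimethylates H3K36 behind RNA polymerase II, and the gene on which the study centres. In TF1-BAR cells the study reported its mRNA as unchanged by qRT-PCR and its protein as lower by Western blot. The values here are of RNA alone and do not give the protein. SETD2 was at 9.45 and 9.11 FPKM in TF1-BA and at 12.1 and 12.4 in TF1-BAR, 9.28 ± 0.240 against 12.3 ± 0.186 (SD, n = 2 libraries per line). The log2 fold change was 0.38 (SE 0.0703, 95% interval 0.20 to 0.57, adjusted p = 0.0213, limma). These values rest on 1423 to 2013 fragments per library over SETD2 (ENSG00000181555), at 47016429 to 47163967 on the minus strand of chromosome 3. The call held in 14 of 14 other settings with all libraries, and leaving out 1 library gave 0.36 to 0.41, with an adjusted p of 0.0472 to 0.157 (limma), under the threshold only without TF1-BAR replicate 1. ASH1L, a writer of H3K36 dimethylation, was at 4.29 and 4.15 against 5.42 and 6.32 (0.43, SE 0.102, adjusted p = 0.0383, limma), and NSD3 at 5.16 and 5.49 against 6.81 and 7.56 (0.40, SE 0.0906, adjusted p = 0.0345, limma). With the chromosome's median removed neither was called, with ASH1L at 0.38 (adjusted p = 0.0565, limma) and NSD3 at 0.33 (adjusted p = 0.0601, limma). The medians of their chromosomes, 0.052 and 0.072, were near that of all genes tested (0.066). ASH1L was also not called with quantile normalization or with the replicate number as a block (adjusted p = 0.0515, limma). ASH1L and NSD3 both overlap genes of the other strand, ASH1L-AS1 at up to 2.78 FPKM and DDHD2 at up to 8.45. Whether counting used strand is not given in the sources used here. The same holds for KDM4A and JMJD1C, which genes of the other strand at up to 2.15 and 3.74 FPKM overlap.

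SETD3, known above all as the histidine methyltransferase of actin, was the most abundant of the H3K36 group and was lower in TF1-BAR, at 21.3 and 24.4 FPKM against 29.4 and 28.8 (log2 fold change −0.34, SE 0.0860, adjusted p = 0.0435, limma). It was not called with the replicate block (adjusted p = 0.0534, limma), with TPM (−0.28, adjusted p = 0.0750, limma), with no filter (0.106) or with eBayes without trend (0.0844). NSD2, the dimethylase of multiple myeloma translocations, was at 13.3 and 12.9 against 11.4 and 12.5 FPKM (−0.13, 95% interval −0.33 to 0.07, adjusted p = 0.264, limma). SETD2 was therefore at 0.709 and 0.704 times the level of NSD2 in TF1-BA and at 1.06 and 0.993 times in TF1-BAR. NSD1 was at 6.41 and 6.11 against 6.70 and 7.56, SMYD2 at 3.82 and 3.56 against 4.28 and 4.24, and SETMAR, a fusion of a SET domain with a transposase, at 2.49 and 2.36 against 2.54 and 2.79. In these 3 genes the libraries did not overlap between the lines but the test was not passed.

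The erasers that act on H3K36 alone or beside H3K4 were not called. KDM2A was at 10.2 and 9.46 FPKM in TF1-BA and at 10.2 and 11.3 in TF1-BAR, KDM2B at 1.42 in both TF1-BA libraries against 1.75 and 1.64, and KDM8 at 0.785 to 0.851 on 50 to 62 fragments. The log2 fold change of KDM8 was −0.028 (95% interval −0.43 to 0.38). KDM4A, KDM4B and KDM4C take methyl groups from both H3K9 and H3K36. With them, 2 of 6 enzymes for H3K36 were lower and 0 higher, beside 10.5% and 16.3% of all genes tested. SETD2 stood at 0.182 and 0.174 times the level of KDM4A in TF1-BA and at 0.287 and 0.289 times in TF1-BAR.

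DOT1L, the H3K79 methyltransferase, was at 5.46 and 5.52 FPKM in TF1-BA and at 6.04 and 6.74 in TF1-BAR (log2 fold change 0.20, SE 0.0884, 95% interval −0.03 to 0.43, adjusted p = 0.156, limma), without overlap but without passing the test. Of the H4K20 writers, KMT5A (SET8), which places the first methyl group and is needed for cell division, was at 14.5 and 12.5 against 8.87 and 9.35 FPKM (−0.54, SE 0.0960, adjusted p = 0.0199, limma). KMT5B and KMT5C, which add further methyl groups, were at 8.38 to 9.17 and 5.34 to 5.61 FPKM and overlapped between the lines. KMT5A was at 1.67 and 1.45 times the level of KMT5B in TF1-BA and at 1.06 and 1.02 times in TF1-BAR. It spans 123383773 to 123409358 on the plus strand of chromosome 12, and 42 of the 46 genes tested within 2 Mb had a higher log2 fold change.

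Sums of FPKM over each lysine describe the same values by their weight, with no test, and an enzyme with 2 substrates enters both sums. The writers of H3K4 summed to 90.8 and 93.1 FPKM in TF1-BA and to 117 and 124 in TF1-BAR, a ratio of 1.31 that was 1.20 without SMYD3. The writers of H3K9 summed to 43.1 and 42.2 against 52.1 and 47.9. Both sums were above TF1-BA in both resistant libraries. The erasers of H3K4 summed to 88.3 and 85.1 against 82.1 and 83.1, a ratio of 0.953 that turned to 1.04 without KDM1B. Those of H3K27 overlapped between the lines, at 33.3 and 34.0 against 32.8 and 34.5. The erasers of H3K9 summed to 112 and 112 against 97.5 and 98.9, and those of H3K36 to 70.6 and 70.3 against 59.9 and 61.4, a ratio of 0.861 that was 0.986 without KDM4A, so that this 1 gene carried nearly all of the H3K36 difference. The H3K36 writers overlapped between the lines, at 74.4 and 72.5 against 70.7 and 77.8, since the fall of SETD3 weighed against the other genes, and the ratio was 1.16 without it. The writers of H4K20 summed to 28.5 and 26.8 against 22.6 and 23.9, with a ratio of 0.840 that was 0.999 without KMT5A. The ratio of summed writers to summed erasers was 1.03 and 1.09 in TF1-BA and 1.43 and 1.50 in TF1-BAR for H3K4, 0.384 and 0.377 against 0.535 and 0.484 for H3K9, and 1.05 and 1.03 against 1.18 and 1.27 for H3K36. For H4K20, with PHF8 as its only eraser here, it went the other way, from 6.01 and 5.81 to 4.96 and 4.67. RNA levels of genes with different substrates and activities do not add up to an enzyme activity.

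**Figure D3:**
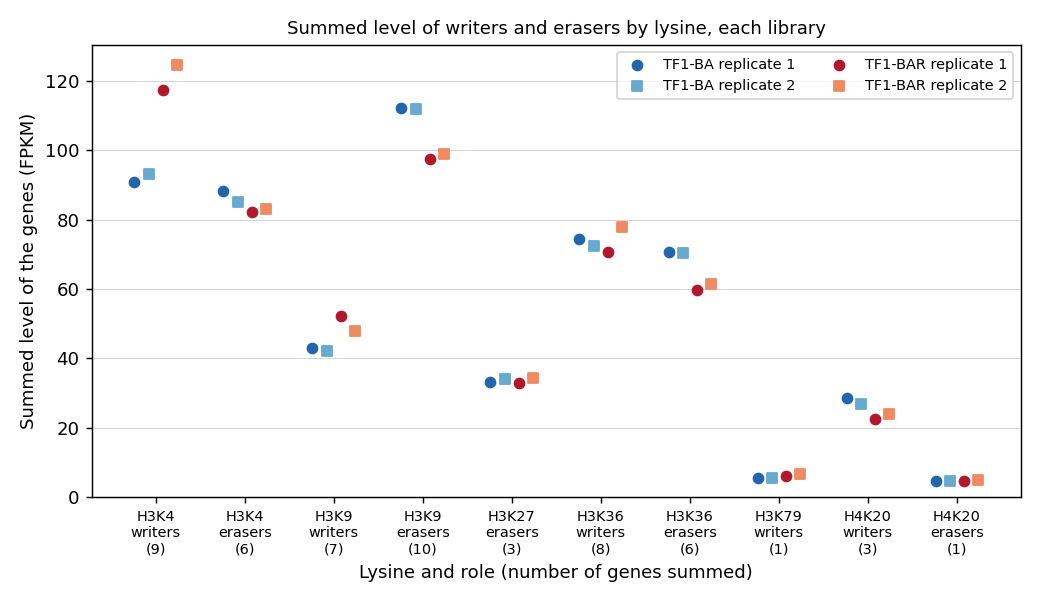
Summed FPKM of the writers and erasers of each lysine in each library (points), with the number of genes summed in parentheses and the axis starting at 0. The sums of the H3K4 and H3K9 writers are higher in both TF1-BAR libraries, and those of the H3K4, H3K9 and H3K36 erasers and of the H4K20 writers are lower in both, for H3K4 only with KDM1B in the sum (ratio 1.04 without it).

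The partners of these enzymes were followed in a list of 58 symbols, namely complex subunits, readers, the enzymes that supply their substrates and other SET or JmjC genes. Of these, 56 were found and 55 tested, and 10 were called higher (18.2%) and 4 lower (7.27%), beside 16.3% and 10.5% of all genes tested. Without TF1-BA replicate 1 or without TF1-BA replicate 2, 0 were called in either direction, and without TF1-BAR replicate 2 there were 2 higher and 1 lower. The core shared by the KMT2 and SETD1 complexes, WDR5, RBBP5, ASH2L and DPY30, had 0 of 4 called, with log2 fold changes of −0.17 to 0.07.

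RCOR1 (CoREST), the scaffold that lets KDM1A act on nucleosomes, was at 78.1 and 74.0 FPKM in TF1-BA and at 38.2 and 38.1 in TF1-BAR (log2 fold change −0.98, SE 0.0605, adjusted p = 0.00344, limma). KDM1A itself overlapped between the lines, so its level was 0.391 and 0.374 times that of RCOR1 in TF1-BA and 0.773 and 0.816 times in TF1-BAR. MECOM (EVI1), a PRDM family zinc finger protein and leukaemia oncogene, met the fold change threshold beside that on the adjusted p, at 1.34 and 1.49 FPKM against 4.49 and 5.62 (1.53, SE 0.136, adjusted p = 0.00565, limma). A processed pseudogene that lies within MECOM reached 48.6 FPKM.

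Both genes called among the 3 that supply the methyl donor were higher. MAT2A, which makes S-adenosylmethionine, was at 73.6 and 67.9 FPKM in TF1-BA and at 102 and 96.7 in TF1-BAR (log2 fold change 0.49, SE 0.0693, adjusted p = 0.0121, limma), and AHCY, which removes the product S-adenosylhomocysteine, at 69.9 and 70.0 against 94.7 and 96.3 (0.45, SE 0.0539, adjusted p = 0.00908, limma). Of the 4 genes around α-ketoglutarate, 2 were lower: IDH1, which makes it, at 51.5 and 59.4 against 40.3 and 37.6 (−0.50), and D2HGDH, which makes it from 2-hydroxyglutarate, at 3.32 and 3.64 against 1.95 and 2.17 (−0.64). AHCY and NCOA6, a subunit of the KMT2C and KMT2D complexes (7.49 and 7.82 against 11.3 and 12.7 FPKM, log2 fold change 0.62), lie on chromosome 20, where the median of all genes tested was 0.39. With the chromosome's median subtracted AHCY was at 0.06 (adjusted p = 0.468, limma) and NCOA6 at 0.23 (adjusted p = 0.123, limma).

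Of the 4 DOT1L partners, the acyl-lysine readers MLLT1 (0.46) and MLLT3 (0.57) were higher on the log2 scale and MLLT10 (−0.54) was lower. MLLT3 was at 7.27 and 7.29 FPKM against 10.6 and 11.5, and MLLT10, which like JMJD1C lies on chromosome 10, at 10.5 and 9.94 against 6.53 and 7.18. With the median of chromosome 10 subtracted MLLT10 was at −0.20 (adjusted p = 0.145, limma), and so was not called. On the repressive side, TRIM28, which recruits SETDB1, was at 128 and 129 against 153 and 161 FPKM (0.29), CBX5 (HP1α), a reader of H3K9 methylation, at 20.1 and 20.5 against 24.9 in both (0.29), and the H3K27 methyltransferase EZH1 at 3.52 and 3.79 against 5.28 and 6.24 (0.59). TRIM28, CBX5 and MLLT1 were not called with the median of their chromosome subtracted (adjusted p = 0.0804, 0.0686 and 0.0770, limma). SETD6, a methyltransferase of the NF-κB subunit RELA, was at 2.94 and 3.31 against 4.92 and 5.05 FPKM (0.60), and it overlaps CNOT1 on the other strand, which reached 34.3 FPKM. With no filter on low values 8 partners were no longer called, with an adjusted p (limma) of 0.0502 for MLLT10, 0.0525 for CBX5, 0.0548 for SETD6, 0.0626 for D2HGDH, 0.0698 for TRIM28, 0.0711 for IDH1, 0.0729 for EZH1 and 0.106 for MLLT1.

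**Figure D4:**
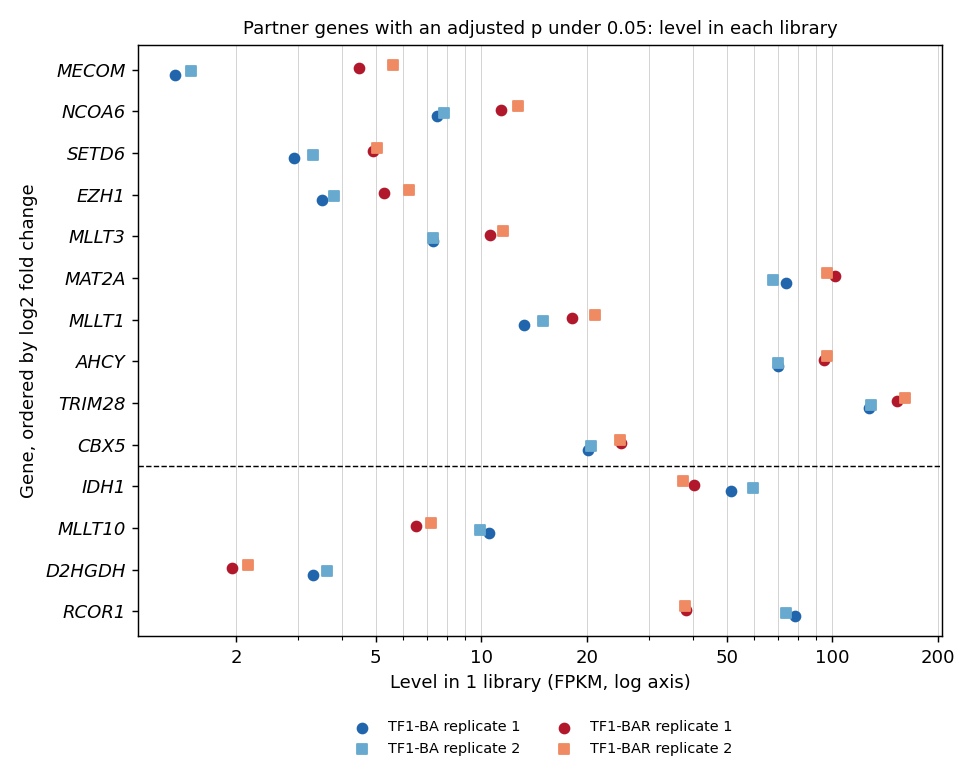
Level in each library, in FPKM on a log axis, of the 14 partner genes with an adjusted p under 0.05, with the 10 higher genes above the dashed line and the 4 lower ones below it. Circles and squares are replicates 1 and 2, blue TF1-BA and red TF1-BAR; MECOM and RCOR1 lie at the ends of the order.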

How the data were processed

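RNA of TF1-BA and TF1-BAR cells was extracted with TRIzol and sequenced for the study by a company in 2 libraries per line as paired-end reads, which were mapped to GRCh38 with TopHat2 (2.0.13 per the submitters' processing notes) and carried through Cufflinks and Cuffdiff (2.2.0) with default parameters, with DESeq2 as the study's test. The values the authors deposited are FPKM, without log transformation, for each library. The annotation release is not given in the sources used here. Groups and replicate numbers were taken from the sample labels.

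The test was limma 3.58.1 in R 4.3.3 (lmFit, eBayes with a trend) on log2(FPKM + 0.5). A mean of 0.5 FPKM or more was required, which left 15519 genes, with Benjamini-Hochberg adjustment over all of them; fold changes on this scale understate the change of low genes. The fit was tested on simulated data. Library sizes and fragments were recovered by finding the sizes and gene lengths at which the FPKM of a gene become whole (within 0.002) in all 4 libraries: 14306 genes were whole at their GENCODE 44 exon length and 16547 at a fitted length, and 0 of 300 with wrong sizes. They cover counting error only and entered tests in 1 alternative (limma voom).

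The members, the partner list and the markers were chosen with earlier results of these data known. Some marker genes are not reported here. All members are named. Full statistics are given for SETD2, members with an adjusted p under 0.05 and the most abundant writer and eraser of each lysine. Of the partners, those with an adjusted p under 0.05 and the 3 largest changes in each direction are named. Alternatives were pseudocounts of 1 and 0.1, a minimum mean of 1 FPKM, no minimum, upper-quartile, TPM and quantile scaling, eBayes without trend or robust, the replicate number as a block, voom, removal by splines of the trend on GC content, length and level, subtraction of the chromosome's median, and leaving out each library.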

Additional observations from a re-analysis of the deposited data

How the results depend on the processing

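The members called higher (9) numbered 2 with no filter on low values, 5 with quantile normalization, 2 with eBayes without trend, and 3 with each chromosome's median removed. Those called lower (7) numbered 1 with no filter and 3 with eBayes without trend. Leaving out 1 library gave 0 to 5 higher and 0 to 3 lower members. The partners called higher (10) numbered 5 with no filter and 5 with the chromosome's median removed, and those called lower (4) numbered 1 with no filter, 8 with limma voom and 7 with the trend on GC content, length and level removed; leaving out 1 library gave 0 to 8 and 0 to 5. By both thresholds, the count of 0 members became 1 with TPM (SMYD3), and 16 with no fold change threshold. Over all genes tested, leaving out a TF1-BA library left 144 (replicate 1) or 42 (replicate 2) called, and leaving out a TF1-BAR library 3176 (replicate 1) or 1028 (replicate 2), against 4167; the lone library of the line is then assumed to vary like the others. The cause of these shifts was not tested.

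The replicate numbers did not pair the samples (correlation of the deviations of same-numbered libraries 0.0646). With the replicate number as a block, 6 members were higher and 6 lower, 10 partners higher and 4 lower, and ASH1L, SETD3, SETDB2 and PRDM2 were no longer called (adjusted p = 0.0515, 0.0534, 0.0652 and 0.0672, limma). With the trend removed in the same fit as the block, 5 members were higher and 7 lower.

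SMYD3, SETD2 and JMJD1C were called in all 14 other settings with all libraries, KMT5A and KDM4C in 13. Some members not called in the main fit were called in other settings. KMT2A and SETDB1 were called higher with TPM and with limma voom, and KDM7A lower with limma voom. NSD2 was called lower with the trend removed, but not when the block was in the same fit. No called member changed its direction. Members that did were not called in either fit. With the trend removed, alone or with the block, the log2 fold changes were −0.078 for EHMT1, −0.0048 for KDM2A, −0.013 for KDM2B, −0.028 for KDM3B, −0.042 for KDM4D, −0.0069 for KDM5C, −0.10 for PHF8, −0.087 for SETD1B and −0.068 for SUV39H1. With quantile normalization they were −0.034 for KDM4D, −0.011 for KMT2E, −0.029 for KMT5B, −0.034 for PHF8, −0.027 for SETD1B and −0.051 for SUV39H1. With the chromosome's median removed they were −0.023 for KDM4D, −0.042 for KMT2E, −0.094 for KMT5B and −0.0072 for PHF8. TPM gave 0.060 for KDM5B, 0.020 for KDM8 and 0.035 for KMT5C, and upper-quartile scaling gave −0.010 for KMT5B. Leaving out 1 library gave −0.0099 to 0.13 for KDM1A, −0.14 to 0.31 for KDM4D, −0.035 to 0.021 for KDM5B, −0.062 to 0.0059 for KDM8, −0.047 to 0.077 for KMT5B, −0.062 to 0.0022 for KMT5C, −0.033 to 0.12 for PHF8, −0.053 to 0.23 for SETD1B and −0.12 to 0.24 for SUV39H2.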
